A study of Homo sapiens with 8 samples.

Results

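Among H3K36me3 domains called both in HepG2 cells with a control shRNA and in HepG2 cells with an shRNA against SETD2, 524 kept nearly the same tag density. They were chosen from 7543 matched pairs of a control peak and a knockdown peak, in which the shared part was 50% or more of each peak. Those pairs came from 35375 control peaks and 23488 knockdown peaks. Tag density is the number of immunoprecipitated tags in a peak per kb of its width and per 1000000 tags left after duplicate removal. A pair was counted as nearly unchanged when the log2 ratio of its knockdown density over its control density was -0.15 or more, which held for 6.95% of the matched pairs. The remaining 7019 pairs had lower ratios.

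H3K36me3 is trimethylation of histone H3 at lysine 36. The mark is laid down over the bodies of genes while they are transcribed, by SETD2 travelling with the elongating RNA polymerase II, and SETD2 is the enzyme that makes nearly all of the trimethylated form in human cells. Other enzymes, such as those of the NSD family and ASH1L, place the lower methylation states at the same residue. The mark is read by proteins that act in DNA methylation, splicing, mismatch repair and the silencing of start sites inside genes.

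HepG2 is a human hepatocellular carcinoma line. The study's 8 libraries make up 4 groups, with 2 replicates each. They are immunoprecipitated and input chromatin from cells with a non-specific control shRNA, and the same from cells with SETD2 shRNA. All groups had received their shRNA by lentivirus with 4 µg/mL polybrene and were selected with 1 µg/mL puromycin, and the sources used here do not say whether a line was a mixed pool or a clone. The level of SETD2 itself was not analysed here. The authors merged both replicates ahead of peak calling, so each peak carries a single value per condition, and no replicate spread or test can be given. The merged immunoprecipitates kept 47880817 control tags and 67053273 knockdown tags without duplicates, and the density outside peaks was 0.235 and 0.337. The latter density takes the tags outside all peaks of a list, over the effective genome of 2.7 Gb less the length of those peaks. Intervals on densities are exact Poisson 95% intervals and those on shares are exact Clopper-Pearson 95% intervals, and neither covers more than counting error. Coordinates refer to hg19. Gene coordinates and sequence on that build were not used here, so domains are named by position, and the identity of the line was not checked against marker genes.

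Because the ratio chose the domains, its values describe them and support nothing. The 524 ratios ran from -0.15 to 0.47 with a median of -0.06, against a median of -0.62 (quartiles -0.82 and -0.42) in the other pairs. In 162 the ratio lay between -0.15 and -0.10, in 117 between -0.10 and -0.05, and in 98 between -0.05 and 0. The knockdown was the denser in 147, which is 1.95% of all matched pairs. Of these, 88 were under 0.10, 41 lay between 0.10 and 0.20, and 18 were higher. The domains form the right-hand edge of a single continuous distribution of ratios, with no gap at the limit.

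**Figure D1:**
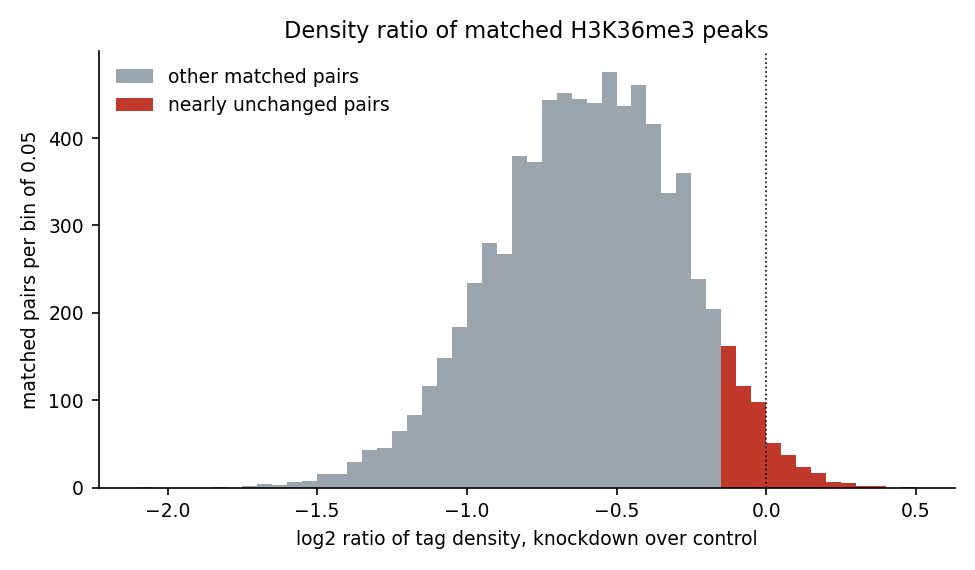
Number of matched pairs (vertical axis) by the log2 ratio of knockdown over control tag density (horizontal axis, bins of 0.05). The 524 nearly unchanged pairs (red) make up the right-hand edge, from -0.15 to 0.47, and the other 7019 pairs (grey) have a median of -0.62.

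The pairs nearest to the limit were alike on its 2 sides. Just inside were a pair on chromosome 5 from 167819434 to 167821148 (control peak), with a control density of 0.913 and a knockdown density of 0.823, and a pair on chromosome 7 from 137938156 to 137942448, with 1.15 and 1.04. The third was on chromosome 10 from 105412760 to 105420314, where the density intervals were 1.28 to 1.53 and 1.15 to 1.39. Just outside were 3 pairs on chromosome 1, from 227473002 to 227474749 (0.980 and 0.883), from 167285005 to 167287870 (0.940 and 0.847) and from 200623202 to 200624579 (0.758 and 0.683). In each of these 6 pairs the intervals of both densities overlapped.

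Counting error was wide beside the limit. The standard error of the ratio from tag counts alone had a median of 0.17 on the log2 scale among the nearly unchanged domains and 0.11 among the other pairs. In 489 of the 524 (93.3%) the 95% interval of the ratio reached below -0.15, and in 1798 of the other 7019 pairs (25.6%) it reached -0.15 or above. In the remaining 35 domains, out of 7543 matched pairs, that interval lay wholly at or above -0.15. They were picked by the same ratio, with no allowance for the number of pairs, so chance is not excluded. Their high ratios follow in large part from that choice. The median was 0.13 (range -0.06 to 0.47), and 30 were denser in the knockdown. Of the 35, 14 lay on chromosome 1 and 8 on chromosome 5. Those 2 chromosomes held 15.3% and 6.35% of all matched pairs, and 30.3% and 11.3% of the 524. The intervals of the 2 densities overlapped in 520 of the 524, against 28.4% of all matched pairs. The rule and the low tag counts favour such overlap, so this contrast is largely built in. The knockdown interval lay wholly above the control interval in 4 of the 7543 pairs (0.0530%). Under the rule any such pair is among the 524.

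Most of the nearly unchanged domains were weakly marked. Their median control density was 0.957 (quartiles 0.859 and 1.09) and their median knockdown density 0.930 (0.845 and 1.04). For the other pairs the control median was 1.54 (1.21 to 2.13) and the knockdown median 1.004 (0.859 to 1.25). In the knockdown the 2 sets therefore stood close together, and in the control they stood apart. The median nearly unchanged domain stood at 4.08 times the density outside peaks in the control and at 2.76 times in the knockdown. The median of the other pairs stood at 6.57 and 2.98 times. The fold enrichment over input, the authors' own value within each list, had a median of 4.15 in the control list (range 2.45 to 13.81) and of 3.70 in the knockdown list (2.13 to 15.89). In the other pairs the medians were 7.48 and 4.07. Density and fold enrichment rest on the tags that the rule used.

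**Figure D2:**
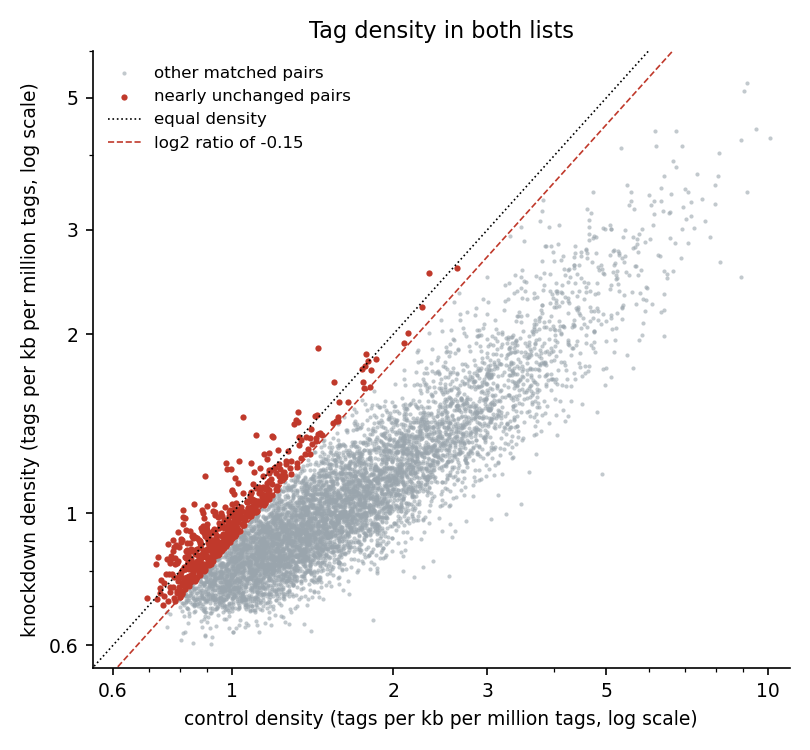
Tag density of each matched pair in the control (horizontal axis) and in the knockdown (vertical axis), in tags per kb per 1000000 filtered tags on log scales. Nearly unchanged pairs (red) lie above the dashed line of a log2 ratio of -0.15, mostly near a density of 1 in both lists, and a few lie near 2, among pairs whose knockdown density was lower (grey).

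The share of pairs that were nearly unchanged was highest where the control was weakest. By quartile of control density it was 23.2% (21.3 to 25.1%) from 0.693 to 1.16, 3.50% (2.72 to 4.43%) from 1.16 to 1.49, 0.849% (0.486 to 1.37%) from 1.49 to 2.08, and 0.265% (0.0861 to 0.618%) above that. By quartile of control fold enrichment it was 21.1%, 4.72%, 1.49% and 0.212%, and by quartile of control width 17.6%, 6.63%, 2.81% and 0.690%. The control density stands in the ratio, so part of this order is built in. By quartile of knockdown fold enrichment the share ran only from 8.62% and 8.71% in the lower quartiles to 6.45% and 4.00% in the upper ones.

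Few weak control peaks entered a pair at all. The lowest density in the knockdown list was 0.595, and 5% of its peaks were under 0.708, which bounds from below the densities that could be compared. Of the 19925 control peaks with a density in the lowest quartile range, 3134 (15.7%) overlapped any knockdown peak, 1886 (9.47%) entered a matched pair and 437 (2.19%) were nearly unchanged. In the highest range, 2659 of 3132 control peaks (84.9%) overlapped a knockdown peak, 1886 (60.2%) entered a pair and 5 (0.160%) were nearly unchanged.

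By the caller's false discovery rate (FDR) the nearly unchanged domains were among the less certain peaks. A limit of 5% was set here and was not the caller's own. The FDR stayed at or under it on the control side for 156 of them (29.8%), against 80.1% of all matched pairs. In the knockdown list 23 reached it (4.39%), against 11.3% of all pairs, and the same 23 reached it in both lists, where the share of all pairs was also 11.3%. Of these 23, 7 were on chromosome 1 and 10 on chromosome 5. These were 4.76% and 16.4% of the pairs there that met the limit in both lists, against 2.71% of all such pairs. Over all 524 the knockdown FDR had a median of 67.7% (quartiles 40.8 and 80.9%), against 54.2% (19.6 and 78.7%) in all matched pairs. The control FDR had medians of 8.475% and 0.07%. A minimum of 200 tags in each list was met by 133 domains (25.4%), against 62.7% of all pairs. At the median, a domain held 125 control tags and 179.5 knockdown tags.

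The domains were narrow, and in the knockdown they were called wider rather than narrower. Control peaks among them had a median width of 2.72 kb (quartiles 1.90 to 4.05 kb), and their knockdown partners one of 2.89 kb (2.15 to 4.18 kb). In the other pairs the median width fell from 5.83 kb to 4.55 kb. The knockdown peak was the wider in 342 of the 524 (65.3%, 61.0 to 69.3%), against 18.9% of all matched pairs and 15.5% of the other pairs. It reached past the control peak at both ends in 202 (38.5%), against 8.13% of all pairs, and lay inside it at both ends in 77 (14.7%), against 62.3% of the other pairs. In sum the 524 domains covered 1.82 Mb in the control and 2.06 Mb in the knockdown, or 113% of the control length, while the other pairs covered 58.0 and 45.5 Mb, or 78.5%. Width is the divisor of the density, so this contrast is not independent of the rule.

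The place of the highest signal within a domain did not enter the rule. The summits of the 2 lists lay within 500 bp of each other in 346 of the 524 domains (66.0%, 61.8 to 70.1%), against 60.5% of all matched pairs. The median distance was 257 bp, and 312 bp in the other pairs. The domains were also narrower, which leaves less room for a summit to move. Neither peak overlapped a further peak of the other list in 449 domains (85.7%, 82.4 to 88.6%), close to the 84.0% of all pairs.

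For the other 75 domains the density was also taken over every overlapping peak of each list, a choice made after the data were seen. The ratio stayed at -0.15 or above in 50 and was below it in 25, with a median of -0.09 and a lowest value of -0.92. Bounds drawn differently in the 2 lists thus move the ratio of a domain that was joined or split.

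A small group of the domains was strongly marked in both conditions, as judged by fold enrichment. The control fold enrichment was 8 or more in 24 of the 524 (4.58%), against 42.6% of all matched pairs, and the knockdown fold enrichment was 8 or more in 14 (2.67%), against 4.71%. Both limits were met by 12, among 353 pairs that met both. Of the 12, 7 were on chromosome 5, 4 on chromosome 1 and the last on chromosome 12. Chromosome 5 held 6.35% of all matched pairs and 11.3% of the 524, and chromosome 1 held 15.3% and 30.3%. The spread of the 353 over the chromosomes was not counted. This group was chosen after its values were seen.

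The strong domains of chromosome 5 lay mostly in the first 2 Mb of the chromosome. The domain with the highest knockdown fold enrichment of all 524, at 15.89, was the control peak from 633342 to 642327. It held 668 tags at a density of 1.55 in the control (1.44 to 1.67) and 1830 tags at 1.66 in the knockdown (1.59 to 1.74), where the peak ran on to 650112. The domain from 862605 to 878895 was called with nearly the same bounds in both lists, and its density went from 2.26 (2.16 to 2.37) with the control shRNA to 2.22 (2.13 to 2.31) with SETD2 shRNA. The domain from 1802273 to 1823417 was 21.1 kb wide in the control and 21.2 kb in the knockdown, with densities of 1.82 (1.73 to 1.90) and 1.74 (1.67 to 1.81). In each of these 3 domains the intervals of the 2 conditions overlapped. Their fold enrichments, control then knockdown, were 10.17 and 15.89, 13.81 and 10.92, and 10.17 and 10 in that order.

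The domain of chromosome 5 from 1317480 to 1326686 had a control density of 1.78 (1.66 to 1.91) and a knockdown density of 1.85 (1.76 to 1.95), with an FDR of 0% in both lists. From 445710 to 461414 they were 1.76 and 1.63, and from 616244 to 629568 they were 1.43 and 1.32. The fold enrichment in these 3 domains went from 9.59 to 10.26, from 13.62 to 9.40 and from 9.54 to 9.22. The knockdown FDR was 23.05% at 445710 and 5.17% at 616244. Outside this stretch, the domain from 57749563 to 57754964 was the densest of all 524 in both lists. Its control density was 2.63 (2.44 to 2.84) and its knockdown density 2.59 (2.45 to 2.74), with fold enrichments of 12.27 and 11.87. These strong domains are the exception on the chromosome, since 45 of its 59 nearly unchanged domains lay in the lowest quartile of control density, from 0.693 to 1.16.

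On chromosome 1 the widest of the 524 domains in the knockdown was the control peak from 70885577 to 70905968. It had 1413 tags at a density of 1.45 in the control (1.37 to 1.52) and 3874 tags at 1.90 in the knockdown (1.84 to 1.96). The peak was 20.4 kb wide in the control and 30.4 kb in the knockdown, and the knockdown interval lay wholly above the control interval. The knockdown peak also overlapped a second control peak, and with both control peaks summed the ratio was 0.35 in place of 0.39.

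The domain of chromosome 1 from 155915700 to 155940515, the widest in the control at 24.8 kb, had a control density of 1.86 (1.78 to 1.94) and a knockdown density of 1.82 (1.75 to 1.88). Its fold enrichments were 10.64 and 10.78. From 78035989 to 78050649 the densities were 1.76 and 1.67 while the width went from 14.7 to 25.3 kb. Its control fold enrichment was 6.87, and this knockdown peak overlapped 3 control peaks. From 242013159 to 242033154 the densities were 1.65 and 1.54, and from 68941950 to 68957817 they were 1.58 and 1.54. Fold enrichments were 9.78 and 9.71 at the former, where the knockdown FDR was 28.63%, and 8.13 and 8.60 at the latter. On chromosome 12 the domain from 51188729 to 51196300 had a control density of 2.10 (1.95 to 2.25) and a knockdown density of 1.93 (1.81 to 2.06). Its fold enrichment went from 12.84 to 9.91.

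Among the domains with at least 200 tags in each list, the highest ratio was on chromosome 1 from 120475226 to 120481184. The control density there was 1.05 (0.936 to 1.18) and the knockdown density 1.45 (1.36 to 1.55), a log2 ratio of 0.47. The neighbouring domain from 120457077 to 120472335 was also the denser in the knockdown, with 1.15 (1.07 to 1.23) and 1.26 (1.20 to 1.32). After the domain at 70885577, the next highest lay on chromosome 5 from 283584 to 288360, where the density went from 0.975 (0.851 to 1.11) to 1.21 (1.12 to 1.32). Another on chromosome 9, from 101903956 to 101912298, went from 1.11 (1.01 to 1.22) to 1.36 (1.28 to 1.43). Together with the domains at 70885577 and 120475226 on chromosome 1, these are the 4 whose knockdown interval was wholly above the control interval. In each of these 4 the knockdown peak was the wider, and each pair also overlapped a further peak of 1 of the lists. Summed over all overlapping peaks, their ratios were 0.35, 0.52, 0.23 and 0.37 in the order chromosome 1 (both), 5 and 9.

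The other 5 domains of highest ratio at that depth lay on 5 different chromosomes. Chromosome 19 from 13946044 to 13950836 had a control density of 0.998 and a knockdown density of 1.19, and chromosome 3 from 136586613 to 136594100 had 1.03 and 1.23. Chromosome 4 from 7799414 to 7803173 had 1.19 and 1.35, and chromosome 12 from 10370464 to 10375733 had 1.33 and 1.48. Chromosome 5 from 60836791 to 60840519 had 1.32 and 1.43. The fold enrichment over input fell on chromosome 19 (5.10 to 2.91) and chromosome 3 (4.62 to 4.45). It also fell on chromosome 4 (7.10 to 5.74) and chromosome 12 (9.01 to 7.81). On chromosome 5 it rose from 6.42 to 6.71. The knockdown FDR was 45.3% on chromosome 19, 26.56% on chromosome 3 and at most 5.75% on the others. The intervals of the 2 conditions overlapped in each of these 5.

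Position did not enter the rule, and the nearly unchanged domains were unevenly spread over the chromosomes. The rule was chosen, however, with the high coverage kept on chromosomes 1 and 5 known from earlier results of these data. Chromosome 1 held 159 and chromosome 5 held 59, together 218 or 41.6% of the domains against 21.7% of the matched pairs. The share of pairs that were nearly unchanged was 13.7% (11.8 to 15.9%) on chromosome 1 and 12.3% (9.51 to 15.6%) on chromosome 5, against 5.18% (4.63 to 5.78%) on all other chromosomes together. Chromosomes 7 (42 of 455, 9.23%) and 8 (29 of 344, 8.43%) followed. The share was 1.30% on chromosome 16 (3 of 230), 2.35% on chromosome 17, 2.40% on chromosome 13 and 2.45% on chromosome 11. On chromosome 20 none of 68 pairs was nearly unchanged, which allows a share of up to 5.28%. Among pairs whose widths were within 10% of each other, the share on chromosome 1 was 7.76% (5.09 to 11.2%), an interval that holds the 6.45% of all pairs so limited, and on chromosome 5 it was 13.5% (8.22 to 20.5%). Pairs of a chromosome are not replicates of it, so the intervals do not measure how the chromosomes would vary between cultures.

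**Figure D3:**
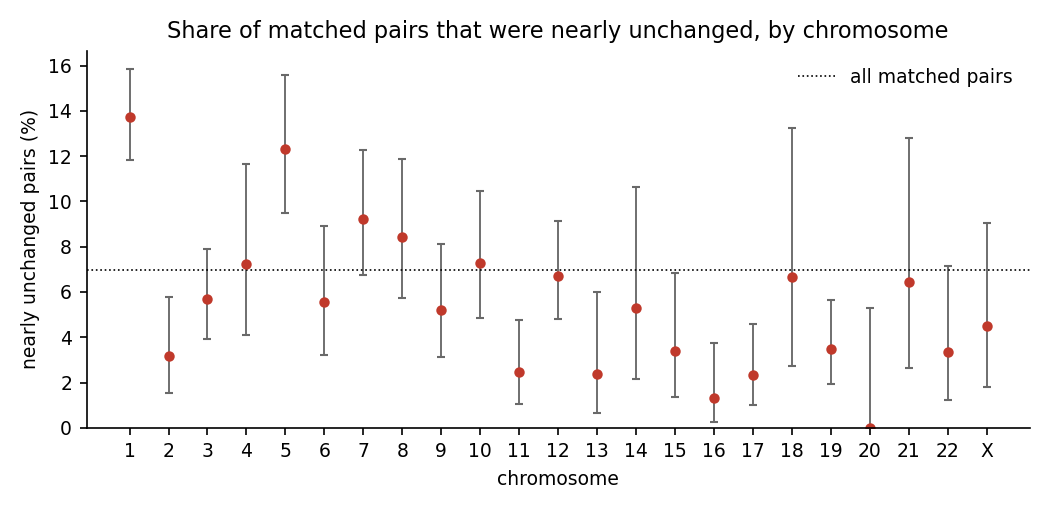
Share of the matched pairs of each chromosome that were nearly unchanged, in percent, with exact Clopper-Pearson 95% intervals, and the 6.95% of all matched pairs as a dotted line. Chromosomes 1 (13.7%) and 5 (12.3%) lie above the line with their whole interval, and chromosome 20 is at 0 of 68.

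The chromosomes were also compared at like control density. In the lowest quartile of control density the share was 32.4% on chromosome 1 (27.7 to 37.3%), 28.5% on chromosome 5 (21.6 to 36.2%) and 19.9% on the other chromosomes (17.8 to 22.1%). In the next quartile the shares were 8.74% on chromosome 1 (5.84 to 12.5%), 4.03% on chromosome 5 (1.32 to 9.16%, 5 of 124) and 2.34% elsewhere (1.63 to 3.25%), so that the interval of chromosome 5 holds the value of the other chromosomes. From 1.49 to 2.08 they were 2.43% on chromosome 1 (6 of 247), 6.31% on chromosome 5 (7 of 111) and 0.196% elsewhere (3 of 1527). In the highest quartile 1 of 215, 2 of 86 and 2 of 1585 pairs were nearly unchanged, too few to set apart.

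Within chromosome 1 the domains were concentrated in a part of the chromosome. In stretches chosen after the values were seen, 8 of 252 pairs were nearly unchanged from the start to 55 Mb (3.17%, 1.38 to 6.16%), with a median ratio over all pairs there of -0.72. From 55 to 105 Mb 73 of 234 were (31.2%, 25.3 to 37.6%), with a median of -0.28, and from 105 to 125 Mb 16 of 116 (13.8%), with a median of -0.40. From 140 to 250 Mb, 62 of 555 pairs were nearly unchanged (11.2%, 8.67 to 14.1%) at a median of -0.45. The median of all pairs thus moved along the chromosome, although single pairs from 55 to 105 Mb still reached down to -1.13. Up to 55 Mb, 67.5% of the pairs were below the median ratio of all 7543 pairs, against 14.5% of those from 55 to 105 Mb. The stretches also differed in peak strength. A control fold enrichment above the median was found in 161 of 252 pairs up to 55 Mb and in 67 of 234 from 55 to 105 Mb. Among these stronger pairs the median ratio was -0.85 in the former stretch and -0.49 in the latter. Of them, 0 and 4 were nearly unchanged, so most nearly unchanged domains of both stretches were weaker peaks.

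Chromosome 5 had the highest share at its start. All 20 pairs of its first 5 Mb lay within the first 2 Mb, and 11 of them were nearly unchanged, a share with an interval of 31.5 to 76.9%. The 20 ratios ran from -0.76 to 0.38 with a median of -0.13, and a single pair was below the median of all pairs. Of the 14 pairs there with a control fold enrichment above the median, 7 were nearly unchanged. In the first 15 Mb 23 of 55 pairs were (41.8%), from 25 to 45 Mb 19 of 92 (20.7%), from 45 to 100 Mb 12 of 144 (8.33%), and from 100 Mb on 5 of 185 (2.70%, 0.883 to 6.19%), with a median ratio of -0.63.

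**Figure D4:**
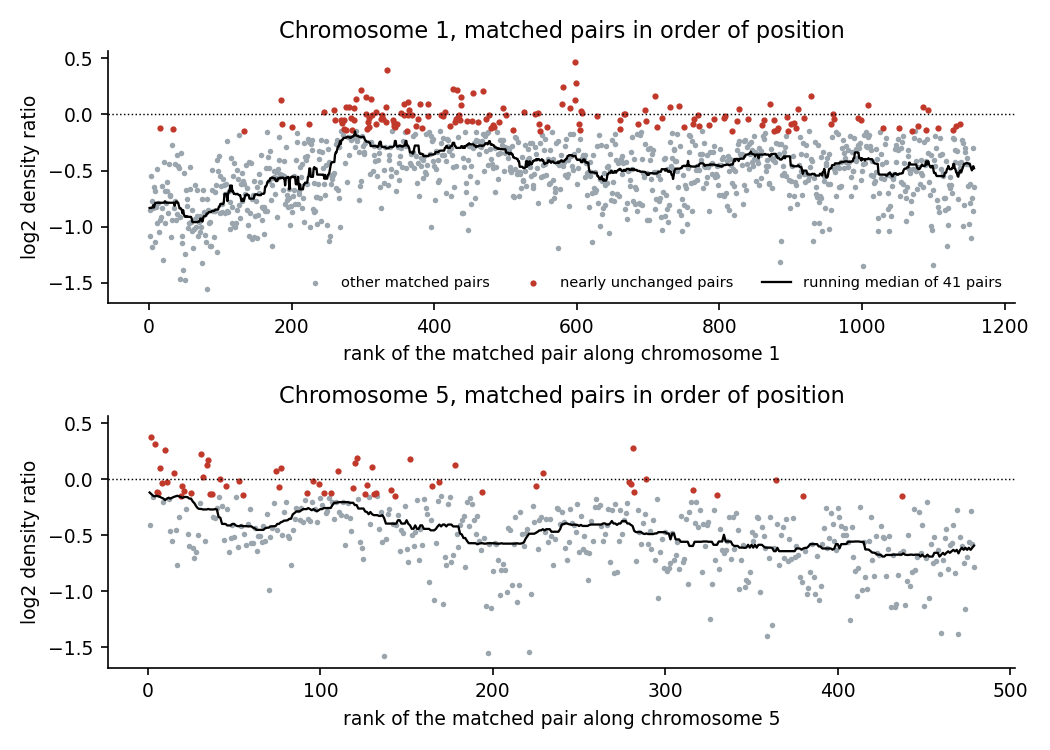
Log2 density ratio (vertical axis) of the matched pairs of chromosomes 1 and 5 in order of position (horizontal axis, rank along the chromosome), with the running median of 41 pairs as a line. On chromosome 1 the median rises and nearly unchanged pairs (red) become frequent past the first 252 pairs, and on chromosome 5 they are most frequent among the first 20.

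In windows of 5 Mb with at least 10 pairs, 28 of 299 had 20% or more nearly unchanged pairs, 10 of them on chromosome 1 and 7 on chromosome 5, and 122 had none. The highest share after the start of chromosome 5 was on chromosome 7 from 115000001 to 120000000, with 6 of 13 pairs (46.2%, 19.2 to 74.9%), followed by chromosome 10 from 65000001 to 70000000, with 7 of 17 (41.2%, 18.4 to 67.1%). On chromosome 1 from 60000001 to 65000000 it was 19 of 47 (40.4%, 26.4 to 55.7%), and from 85000001 to 90000000 it was 11 of 29 (37.9%). Chromosomes 12 (from 40000001 to 45000000, 4 of 13) and 2 (from 65000001 to 70000000, 3 of 10) also held a window at 30% or more. With so few pairs a window, the intervals of these windows overlapped one another.

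Some domains followed each other with no other matched pair between them. Of the 524, 346 stood alone and the rest formed runs, of which 52 had 2 domains, 10 had 3 and the longest had 6. That run was on chromosome 1 from 63877317 to 64088247. Its 6 control densities ran from 0.803 to 1.17 and its knockdown densities from 0.821 to 1.07, and the density summed over the run went from 0.971 to 0.939. It is a run of weak peaks, with control fold enrichments from 3.47 to 6.77.

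A run of 5 on chromosome 5 from 283584 to 653944 held both weak and strong peaks, with control fold enrichments from 4.03 to 13.62, and its summed density went from 1.49 to 1.48. The other run of 5, on chromosome 1 from 94025504 to 94141016, had 1.12 in both conditions. The 7 runs of 4 lay on chromosomes 1 (2 runs), 5 (2), 7 (2) and 12. In the run of chromosome 12, from 9279487 to 10734551, the summed density went from 1.11 to 1.23, and in that of chromosome 7 from 138032992 to 138073760 it went from 1.17 to 1.05.

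Matched pairs near a nearly unchanged domain also had higher ratios, though they hold other tags. Within 1 Mb, 514 of the 524 domains had another matched pair, and the median of their neighbours' median ratios was -0.42 (quartiles -0.55 and -0.30). Around the other pairs it was -0.60 (-0.72 and -0.47). Of the neighbours within 1 Mb, counted once for each domain they lie near, 17.1% were themselves nearly unchanged, against 7.39% around other pairs. The neighbours were below 0 at the median, so the density in most of them was still lower in the knockdown.

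The difference was largest close by and became smaller with distance. Up to 100 kb the neighbours' median was -0.34 around nearly unchanged domains and -0.57 around other pairs, and from 5 to 10 Mb it was -0.52 and -0.61. Without chromosomes 1 and 5, a choice made after the data were seen, the medians up to 100 kb were -0.37 and -0.60, and from 100 to 250 kb -0.51 and -0.63. From 250 to 500 kb they were -0.60 and -0.65, from 1 to 2 Mb -0.56 and -0.64, and from 5 to 10 Mb -0.59 and -0.63. On these other chromosomes the difference was thus largest up to 100 kb and did not become steadily smaller beyond 250 kb. All pairs come from the same 2 pooled libraries, and neighbours can lie in the same transcribed unit, which was not tested.

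**Figure D5:**
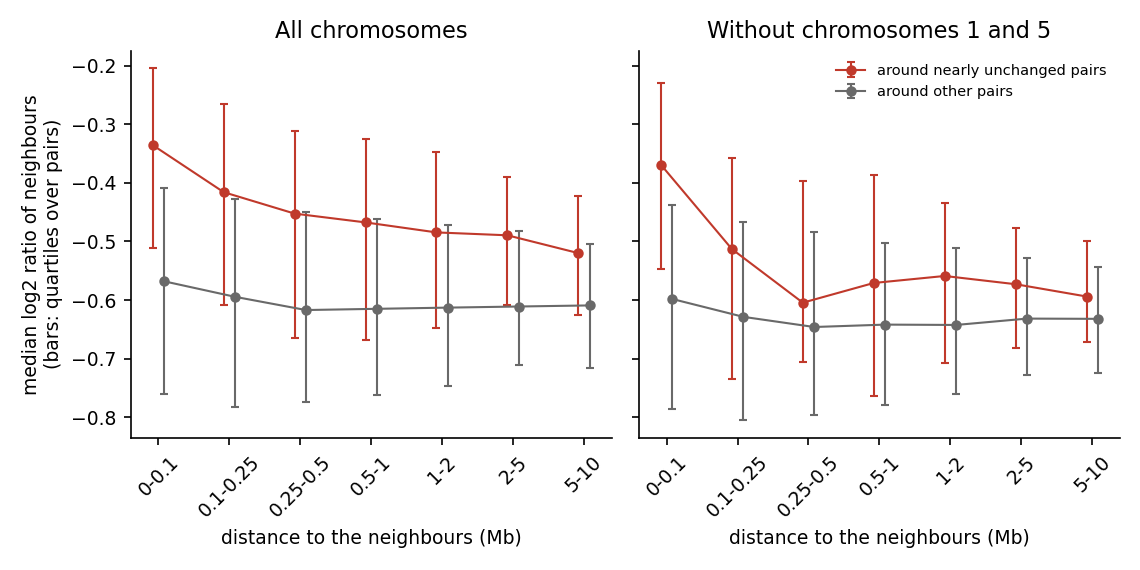
Median log2 ratio of the matched pairs around nearly unchanged pairs (red) and around other pairs (grey), by distance in Mb (horizontal axis), on all chromosomes (left) and without chromosomes 1 and 5 (right). Points are medians over pairs and bars are quartiles; up to 0.1 Mb the points are -0.34 and -0.57 on the left and -0.37 and -0.60 on the right.

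The surroundings of strong domains were described in the same way. Around the 24 nearly unchanged domains with a control fold enrichment of 8 or more, the neighbours within 1 Mb had a median of -0.34 (quartiles -0.56 and -0.17), against -0.64 (-0.76 and -0.52) around the 3138 other pairs of that strength that had a neighbour. With neighbours limited to pairs of that strength as well, the medians were -0.62 (quartiles -0.79 and -0.16) around 23 nearly unchanged domains and -0.80 (-0.91 and -0.70) around 2958 other pairs. Individual domains, of any strength, differed. The domain of chromosome 5 at 862605 had 19 neighbours, of which 10 were nearly unchanged, at a median of -0.15, whereas that of chromosome 9 at 101903956, with a control fold enrichment of 5.96, had 6, of which none was, at a median of -0.57. The domain of chromosome 1 at 155915700 had 49 neighbours at a median of -0.50, 5 of them nearly unchanged.

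Peaks other than those of the nearly unchanged domains were compared in windows of 1 Mb, each peak placed by its midpoint. Peaks of the other matched pairs were kept in the covered lengths. In the 329 windows with a nearly unchanged domain, and with those domains left out, the length under knockdown peaks was at the median 57.8% of that under control peaks (quartiles 41.4 to 82.2%), taken over the 318 windows that still held control length. In the 1366 windows that had matched pairs but no such domain they covered 44.8% (31.2 and 62.7%). Without chromosomes 1 and 5 the medians were 52.2 and 43.8%.

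Of the control peaks in no matched pair, 1349 of 4959 (27.2%, 26.0 to 28.5%) overlapped a knockdown peak in the former windows and 4592 of 19980 (23.0%, 22.4 to 23.6%) in the latter. Without chromosomes 1 and 5 these shares were 24.0% (22.6 to 25.4%) and 22.7%, a value inside that interval. Knockdown peaks that overlapped no control peak numbered 3.60 per window in the former and 1.67 in the latter, and 2.44 and 1.62 without chromosomes 1 and 5.

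The count of nearly unchanged domains depended on how the 2 libraries were put on 1 scale. With the density outside peaks taken off each list, 98 of the 7543 pairs had a ratio of -0.15 or more. All 98 were among the 524, 38 of them on chromosome 1 and 19 on chromosome 5. Those 2 chromosomes held 15.3% and 6.35% of all matched pairs, and 30.3% and 11.3% of the 524. With that density taken off, the 524 had a median ratio of -0.30 and the other pairs -0.97. With the knockdown scaled to the control's density outside peaks, which lowers each log2 ratio by 0.52, 3 pairs were left, on chromosome 1 at 70885577 and 120475226 and on chromosome 5 at 263951. Control peaks that overlap no knockdown peak count as outside peaks in the knockdown list. The density outside peaks is thus not taken over the same ground in both lists. A nearly equal density per filtered tag is therefore not a measure of an equal amount of the mark per cell, and a scale from added reference chromatin was not used here.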

How the data were processed

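H3K36me3 ChIP-seq and input libraries of HepG2 cells were mapped to hg19 with Bowtie 1.1.2 after FastQC 0.11.5, per the submitters' processing notes. MACS 1.4.2 then called peaks on merged replicates, with a p-value limit of 1e-05 and 1 tag kept per position, as given per the file headers. Deposited tag counts are whole numbers for each peak and were not normalized. Deposited fold enrichment is a ratio to local input. The deposited score is 10 times the negative log10 of the p-value, and the deposited FDR is in percent. The shorter deposited lists were not used.

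Peak pairs, densities, shares and their intervals were computed in Python 3.11.15 (SciPy 1.17.1, NumPy 2.4.6, pandas 2.3.3) and drawn with matplotlib 3.10.9, after the steps were tested on simulated data. No count model or test between conditions was run, since each condition has 1 pooled list. The standard error of a log2 ratio is that of 2 Poisson counts.

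Domains named were the 10 of highest ratio with at least 200 tags in each list, the 10 of highest knockdown fold enrichment, the 5 widest and the 5 with the most tags in the knockdown, 3 on each side of the limit, and the longest runs. Other domains were singled out after their values were seen. The members, rules and lists were chosen with earlier results of these data known, among them the high coverage kept on chromosomes 1 and 5. Planned counts by gene were not made, for lack of gene coordinates on hg19 among the sources used here. Alternatives were another overlap, FDR, depth, tag minimum, width, chromosome set, limit and scale.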

Additional observations from a re-analysis of the deposited data

How the results depend on the processing

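No paired analysis was possible because each peak list was called on merged replicates, and for the same reason no replicate could be left out. Of 97 values under other settings, 46 stayed within 1.5 times (counts) or within the interval of the reported value, 51 moved and none changed sign; where no value shows the cause, the cause was not tested. An overlap of 80% left 205 nearly unchanged pairs, with a share of 9.18% on chromosome 1 and a neighbours' median of -0.45. Stricter sets tested fewer pairs. With an FDR of 5% or less in both lists, 23 of the pairs (2.71%) were left, 4.76% on chromosome 1 and 16.4% on chromosome 5. Their median ratio was -0.027, their widths 7.91 and 9.73 kb in control and knockdown, their fold enrichments 8.13 and 7.53, and their neighbours' median -0.54. With 200 tags in each list, 133 (2.81%) were left, 7.05% on chromosome 1 and 8.45% on chromosome 5, at a median ratio of -0.077, widths of 5.42 and 6.14 kb and fold enrichments of 5.70 and 4.86. With widths within 10% of each other, 123 were left, 7.76% on chromosome 1, at a median of -0.073, widths of 2.93 and 3.05 kb and a neighbours' median of -0.48. Nearly unchanged pairs that overlapped no further peak had a median knockdown width of 2.75 kb. The share was 7.85% with all tags as depth, 4.80% at a limit of -0.10 and 9.65% at -0.20. Taking off the density outside peaks left 98 (1.30%) and moved the median of all pairs by -0.36, and scaling to that density left 3 (0.0398%) and moved it by -0.52. The neighbours' median was -0.37 within 250 kb and -0.47 within 5 Mb, and the covered length in windows of 5 Mb was 51.6%.

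Further settings were chosen after the data were seen. Without chromosomes 1 and 5, 306 pairs (5.18%) were nearly unchanged, at a median of -0.074, a knockdown width of 2.58 kb, a knockdown fold enrichment of 3.61, a neighbours' median of -0.47 and a covered length of 52.2%. Among pairs with a control fold enrichment of 8 or more, 24 (0.746%) were, 2.18% on chromosome 1 and 4.35% on chromosome 5, and the neighbours' median was -0.62 when neighbours too had that strength, against -0.34 over neighbours of any strength. Summed over all overlapping peaks, 521 pairs were at the limit or above.

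Depth limits single domains: 391 of the 524 had under 200 tags in either list, and 489 had a ratio whose counting interval crossed the limit. The share on chromosome 1 was not apart from that of all pairs in every set: its interval holds the share of all pairs with widths within 10% (5.09 to 11.2% against 6.45%) and with the FDR limit (1.94 to 9.57%, 7 domains, against 2.71%). With the fold limit, the shares on chromosomes 1 and 5 rest on 9 and 8 domains.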
